A study of Homo sapiens with 32 samples.

Results

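The comparison set cells whose IGF2BP3 carries a degron against their untagged parental cells, both under endoplasmic reticulum (ER) stress and both given auxin. Its members are 8 of the 32 libraries of the series, 4 of each line, taken by the labels for cell line, stress and auxin. The series asked what removal of IGF2BP3 does to RNA with and without ER stress, and its other 24 libraries hold the same 2 lines in unstressed vehicle, unstressed auxin and stressed vehicle, 4 libraries for each line and state. Both lines are HCT116, an established human colorectal carcinoma line, with a doxycycline-inducible OsTIR1, the plant receptor that marks auxin-degron proteins for the proteasome. In the tagged line the endogenous IGF2BP3 is homozygous for the mini auxin-inducible degron (mAID-IGF2BP3), and the parental line has OsTIR1 without the tag. Doxycycline (200 ng/mL for 24 h) was given to every well, with 4-thiouridine (s4U) at 250 µM for 2 h. The 8 wells compared here also received auxin (IAA) at 500 µM for 9 h and tunicamycin at 5 µg/mL for 5 h, all times counted back from collection. Whether the tagged line is 1 clone is not given in the sources used here. Differences between tagged and parental cells that come from the tag, from deriving the line or from auxin acting on the tagged protein cannot be told apart in this comparison alone. No protein level was among the data used here.

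IGF2BP3 is an RNA-binding protein of the IGF2BP family, best known for binding and stabilising mRNAs in fetal tissue and in tumours. Tunicamycin blocks N-linked glycosylation, and unfolded proteins then build up in the ER and start the unfolded protein response through the sensors PERK, IRE1 and ATF6. In SLAM-seq, s4U built into new RNA is alkylated and read as T-to-C conversions. Reads with conversions are taken to come from RNA made during the labelling time. Every library received s4U, so T-to-C changes of other origin could not be set apart. Each gene gave 3 readings: all reads, labelled reads (those with T-to-C conversions) and the labelled share, in which labelled reads are set against a gene's unlabelled ones. Levels are counts scaled to TMM-adjusted library sizes (CPM), in order of replicate number. A difference is tagged minus parental on the log2 scale with its standard error. For the labelled share, the difference is in the log2 ratio of labelled to unlabelled reads, each scaled by its own library sizes. It is not the log2 change of the printed percent. A gene was called where edgeR's quasi-likelihood test gave an adjusted p (Benjamini-Hochberg, all genes tested) under 0.05.

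Parental replicate 1 stood apart from the other 7 libraries. Reads on named genes came to 987372, 3322427, 3671818 and 3887975 in the parental libraries and to 2548527, 3317576, 5043974 and 4412867 in the tagged ones. A read of parental replicate 1 covered 15.1 T positions on average, against 22.6 to 22.9 in the other 7, and 9.97% of its reads fell on its top 10 genes. Its counts differed from those of the other parental libraries by a chi-square of 62.1 to 69.99 per degree of freedom, against 2.10 to 7.47 for the other pairs within a line. Counts of calls and the values of most genes and lists below are therefore given with and without that library. The epithelial markers EPCAM, CDH1, KRT8, KRT18, KRT19, CLDN4, CLDN7 and ESRP1 summed to 2390 to 2644 CPM in parental and 2850 to 3045 CPM in tagged libraries, and none was at 0. Fibroblast markers summed to 25.5 to 59.7 CPM, immune markers to 4.09 to 13.97 CPM and endothelial markers to 0 to 2.77 CPM; PTPRC, PECAM1, COL1A2 and COL3A1 were at 0 in all 8 libraries. Nothing in the labels says that libraries of 1 number shared a plate or a day, so p-values measure the spread between wells.

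**Figure D1:**
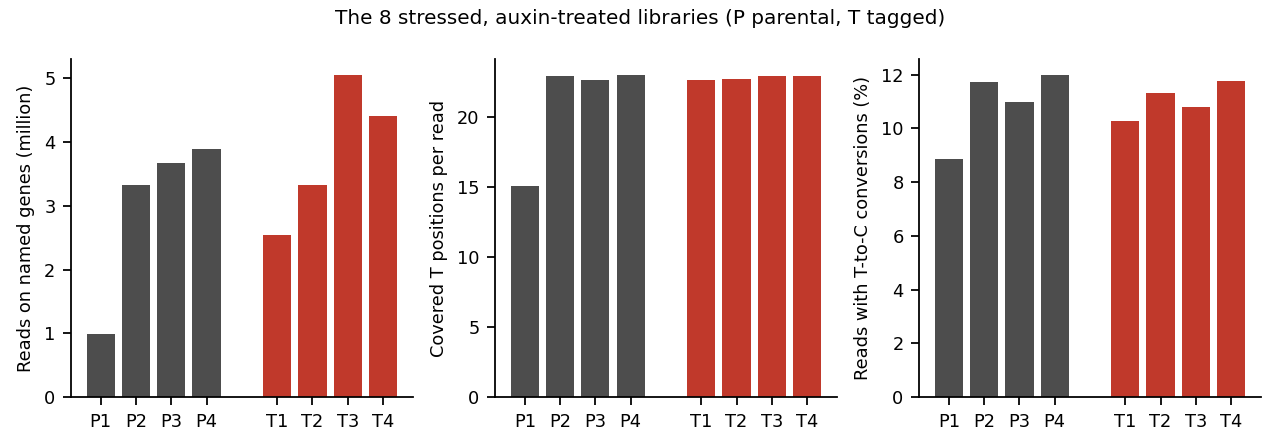
Reads on named genes (M), covered T positions per read and labelled reads (%) in the 4 parental (P1 to P4) and 4 tagged (T1 to T4) libraries, 1 bar each. P1 is lowest in all 3 panels, with 0.987 M reads, 15.1 covered T positions per read and 8.88% labelled reads.

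Labelling of whole libraries did not separate the lines. Labelled reads made up 8.88%, 11.7%, 11.0% and 12% of the reads in parental libraries and 10.3%, 11.3%, 10.8% and 11.8% in tagged libraries. The means were 10.9% ± 1.41 and 11.1% ± 0.641 (SD, n = 4 each), a difference of 0.161 points with an exact two-sided permutation p of 0.886 (0.971 adjusted over the 2 library measures). Conversions came to 0.753% ± 0.0294 of covered T positions in parental and 0.751% ± 0.0381 in tagged libraries (SD, n = 4 each), with an exact permutation p of 0.971 (0.971 adjusted). Parental replicate 1 had conversions at 0.782%, within the 0.705% to 0.794% of the other libraries, although its labelled percent was the lowest. The reason for that was not tested. The smallest p that 4 against 4 libraries allow is 0.0286. Leaving out parental replicate 1 turned the first difference to -0.511 points (exact permutation p 0.343), so no direction was drawn from either measure.

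In all reads, the lines differed at 48 of 11186 genes (0.429%), with 36 lower in tagged cells (0.322%) and 12 higher (0.107%). Among the genes that fell were VCAN, PXDN, SEMA3A, FGF9 and IGF2, which encode matrix or secreted proteins, the cell-cycle kinase CDK6 and the chromatin protein HMGA2. Among those that rose were EPCAM, CLDN4 and MAL2, which encode membrane proteins of epithelial cells. Differences of the 36 lower genes ran from -4.11 to -0.43 with a median of -0.96, and those of the 12 higher genes from 0.67 to 2.85 with a median of 0.97, beside a median of -0.000939 over all genes tested. The libraries of the lines did not overlap at 35 of the 36 and at all 12; over all genes tested this held for 6.3%. Without parental replicate 1 it held for all 48 called genes and for 10.1% of those tested. An unadjusted p under 0.05 was found for 2188 genes.

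Most but not all of these calls were kept when parental replicate 1 was left out. The fit with the other 3 parental libraries called 54 of 11258 genes (0.48%), 21 higher (0.187%) and 33 lower (0.293%), and 39 genes were called in both. All 12 higher genes and 27 of the 36 lower genes were among them. The 9 lower genes that were lost were ASCC3, CAVIN1, CTBP2, DNAAF9, GARIN5A, LSG1, MDM4, SLC17A9 and SOX12, and the 15 gained comprised 9 higher and 6 lower genes. Parental replicate 1 was the highest of the parental libraries at 30 of the 36 lower genes (83.3%), against 40.4% of all genes tested, and the lowest at 10 of the 12 higher genes (83.3%), against 48.4%. The difference shrank without it at 30 of the 36 lower and 10 of the 12 higher genes, and the unlogged fold change by more than 1.5 times at CAVIN1, CRIP2 and PXDN. On the log2 scale the difference was more than 1.5 times smaller at 7 of the 36 lower genes (CAVIN1, CRIP2, CTBP2, SPRY4, IGF2, MDM4 and LSG1) and at 0 of the 12 higher ones. Fitting the 8 libraries alone, with their own estimate of spread, called 0 genes in edgeR (387 at an unadjusted p under 0.05, smallest adjusted p 0.28). The same fit without parental replicate 1 called 71, of which 35 were among the 48. With all 32 libraries, DESeq2 called 666 genes, 43 of the 48 among them.

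**Figure D2:**
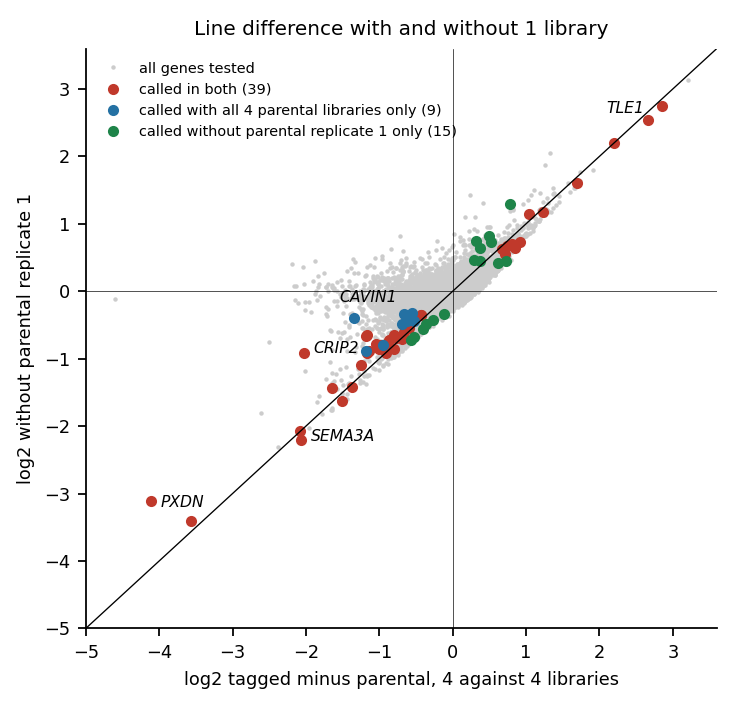
Line difference (log2, tagged minus parental) of each tested gene with all 4 parental libraries (x axis) and without parental replicate 1 (y axis), with a line of equality. Grey points are all genes tested, and coloured points are the 39 genes called in both fits, the 9 called only with that library and the 15 called only without it; CAVIN1 moves from -1.35 to -0.40.

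The IGF2BP family itself did not pass. IGF2BP3 (chromosome 7, 23310209 to 23470491, GRCh38) was read at 235, 161, 164 and 173 CPM in parental and 170, 153, 138 and 150 CPM in tagged libraries. The ranges overlapped, and the difference was -0.25 ± 0.11 (edgeR adjusted p 0.21) with all libraries and -0.13 ± 0.09 (0.744) without parental replicate 1. Its labelled share was 21.6%, 24.4%, 18.6% and 19.7% against 20%, 19.4%, 16.3% and 24.0%. IGF2BP2, a related reader of mRNA, stood at 563, 311, 344 and 324 CPM against 319, 316, 313 and 337 CPM, a difference of -0.25 ± 0.12 (edgeR adjusted p 0.264) that was -0.03 (0.943) in the smaller set. IGF2BP1 did not pass the filter on low counts. Auxin acts on the tagged protein, so its removal cannot be read from these mRNA values.

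Among 14 genes reported elsewhere as IGF2BP3 targets, 12 were tested and 3 fell, where 0.322% of all genes tested were lower. The median difference was 0.07, beside -0.000939 over all genes, and 0.03 without parental replicate 1 with the same 3 lower. The 3 were HMGA2, CDK6 and IGF2. HMGA2 (chromosome 12, 65824460 to 65966291, GRCh38), an architectural chromatin protein of fetal and tumour cells, was read at 269, 290, 301 and 283 CPM in parental and 167, 189, 180 and 176 CPM in tagged libraries. The groups were far apart, parental replicate 1 lay with its group, and HMGA2 fell by 0.69 ± 0.08 on the log2 scale (edgeR adjusted p 1.29e-05), or by 0.72 (9.43e-08) without that library. CDK6 (chromosome 7, 92604921 to 92836573), the kinase that drives the G1 phase with D-type cyclins, was read at 485, 260, 261 and 261 CPM against 155, 138, 152 and 114 CPM. Parental replicate 1 was the highest, and the other 3 still lay above every tagged library. CDK6 fell by 1.16 ± 0.15 (edgeR adjusted p 1.3e-05), or by 0.91 ± 0.10 (6.3e-08) without it.

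IGF2 (chromosome 11, 2129117 to 2149566), the fetal growth factor for which the family is named, depended more on that library. It stood at 354, 128, 124 and 103 CPM in parental and 66.3, 80.2, 74.4 and 76.8 CPM in tagged libraries. IGF2 fell by 1.19 ± 0.22 (edgeR adjusted p 0.00583) with all libraries and by 0.67 ± 0.11 (0.00057) without parental replicate 1, the highest of the 8 libraries. IGF2 shares its locus with a read-through transcript from INS, and reads from either could be counted for it. The other 9 tested members were CD44, MYC, CCND1, CCND3, CCNG1, ULBP2, EIF4EBP2, HMGA1 and HDGF. CD44, the hyaluronan receptor, had a mean of 150 CPM in parental and 190 CPM in tagged libraries without overlap, with a difference of 0.33 (edgeR adjusted p 0.0814) and of 0.27 (0.18) without that library. HMGA1 stood at 0.34 (0.338) and MYC at 0.25 (0.656), and at 0.07 (0.889) and 0.16 (0.913) in the smaller set. ULBP2, a ligand of the NKG2D receptor, was at about 3 CPM in both lines.

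**Figure D3:**
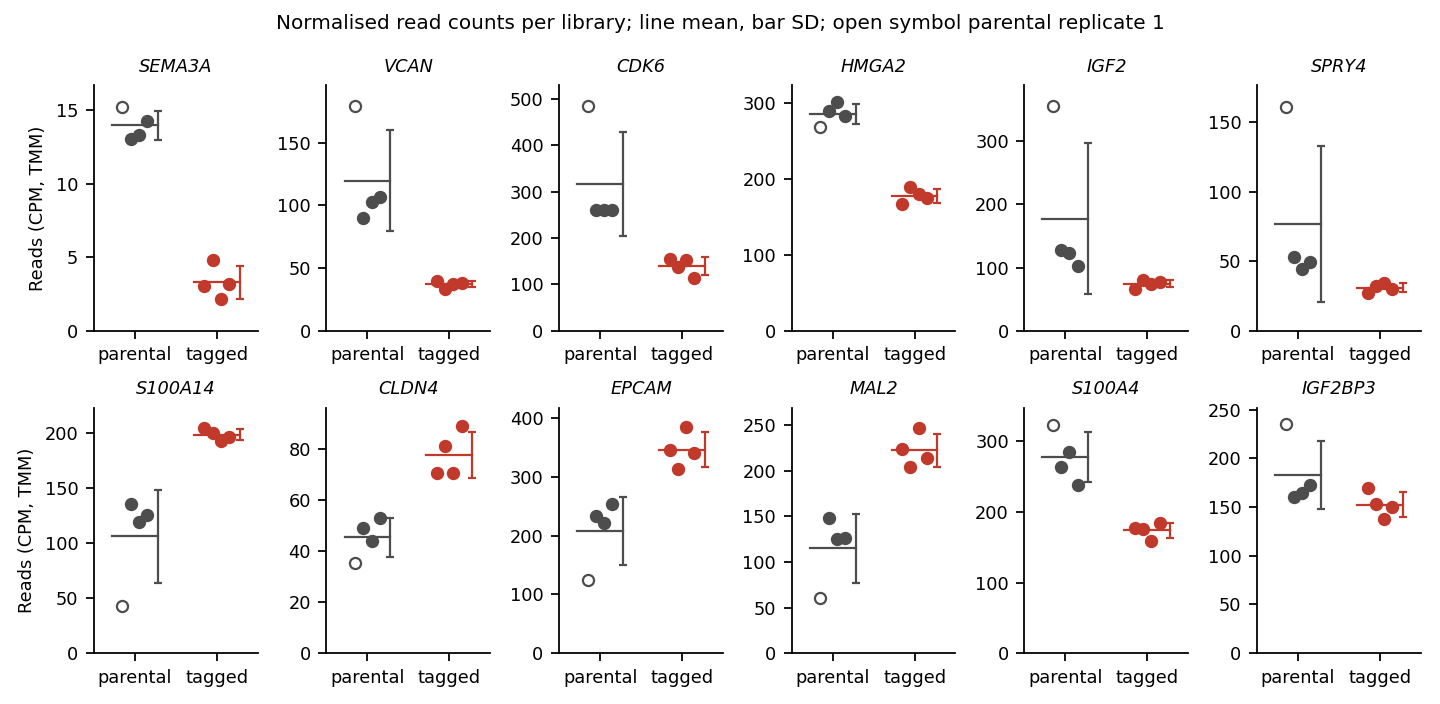
CPM of 12 genes in each of the 8 libraries (points), with the line mean (horizontal bar) and SD (error bar); the open symbol is parental replicate 1. Of these genes IGF2BP3 is the only one whose lines overlap, and for IGF2 and SPRY4 the open symbol, at 354 and 161 CPM, is the highest of the 8.

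Of 29 epithelial genes, 24 were tested, 3 rose and none fell, where 0.107% of all genes tested were higher. Their median difference was 0.43 and 17 of 24 lay above 0, against a median of -0.000939 and 5582 of 11186 above 0 over all genes. In the smaller set 4 rose (0.187% of all genes), the fourth being ST14, a membrane protease. Their median was then 0.39 with 23 of 24 above 0, against 0.00326 and 5655 of 11186. The list was also shifted in the other states, with medians of 0.31 in unstressed vehicle, 0.29 in unstressed auxin and 0.32 in stressed vehicle. Of the genes that rose, CLDN4 and EPCAM are described here. CLDN4 (chromosome 7, 73830996 to 73832690), a tight junction claudin, was read at 35.6, 48.9, 44.0 and 53.2 CPM against 70.5, 81.1, 70.7 and 89.0 CPM. It rose by 0.74 ± 0.12 (0.00106), and by 0.67 in the smaller set. CLDN4 was also called in unstressed auxin (0.74, edgeR adjusted p 0.000934) and stressed vehicle (0.59, 0.0171), but not in unstressed vehicle (0.48, 0.116). EPCAM (chromosome 2, 47369311 to 47387020), the epithelial adhesion molecule, was read at 124, 234, 222 and 253 CPM against 346, 313, 385 and 341 CPM. Its parental replicate 1 was the lowest value, and EPCAM rose by 0.71 ± 0.15 (edgeR adjusted p 0.0116), or by 0.55 (0.00465) without it. CDH1, the adherens junction cadherin, had means of 26.4 and 56.1 CPM without overlap but did not pass (0.94, edgeR adjusted p 0.0985, and 0.71 and 0.159 without that library), and KRT19 stood at 0.07 in both sets.

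MAL2 and S100A14, which are not on that list, rose beside these genes. MAL2 (chromosome 8, 119208363 to 119245673), a membrane protein of apical transport, was read at 61.0, 148, 125 and 126 CPM against 223, 204, 247 and 214 CPM. It rose by 0.91 ± 0.13 (edgeR adjusted p 0.000157), and by 0.74 (8.06e-08) without parental replicate 1. S100A14 (chromosome 1, 153614255 to 153616325), a calcium-binding protein of epithelia, was read at 43.2, 136, 120 and 126 CPM against 205, 201, 193 and 197 CPM. S100A14 rose by 0.85 ± 0.17 (edgeR adjusted p 0.00784), and by 0.64 (6.25e-05) when the shallow library was left out. In both genes that library was the lowest of the 8. The lines did not overlap, which the rule that named both genes required.

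Of 28 mesenchymal genes, 18 were tested, 2 fell and none rose, where 0.322% of all genes tested were lower. The median difference was -0.20 with 6 of 18 above 0, or -0.14 with 5 of 18 above 0 without parental replicate 1, when the same 2 were lower (0.293% of all genes). S100A4 (chromosome 1, 153543621 to 153545806), a calcium-binding protein of motile cells, was read at 323, 264, 285 and 238 CPM against 177, 175, 159 and 184 CPM. It fell by 0.67 ± 0.11 (edgeR adjusted p 0.00111), or by 0.60 (0.00057) without that library. ZEB1 (chromosome 10, 31318417 to 31529804), a repressor that binds E-boxes of epithelial genes, was low throughout, at 1.27, 5.47, 6.65 and 4.50 CPM against 1.54, 0.901, 0.779 and 1.58 CPM. These values rest on 61 parental and 18 tagged reads in all, of which parental replicate 1 held 1, and that library alone made the lines overlap. ZEB1 fell by 2.07 ± 0.40 (edgeR adjusted p 0.00784), and by 2.21 ± 0.41 (0.00205) in the set without it. VIM, an intermediate filament protein, stood at -1.21 (0.08) with overlap, and FN1, the matrix protein fibronectin, at -0.27 (0.694), then at -1.25 (0.112) and -0.37 (0.846) without parental replicate 1. CD44, given above, is also on this list and was higher in tagged cells without passing. The largest difference on the list was 0.51, or 0.34 without that library. In the other states the median of the list was -0.13 in unstressed vehicle, -0.20 in unstressed auxin and -0.39 in stressed vehicle. In bulk RNA, fewer cells of a kind and less RNA per cell cannot be told apart.

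VCAN, SEMA3A and FGF9 were lower in tagged cells with and without parental replicate 1, as the rule that named them required. VCAN (chromosome 5, 83471744 to 83582302), the matrix proteoglycan versican, was read at 179, 89.9, 103 and 107 CPM against 40.1, 33.6, 37.2 and 38.1 CPM. It fell by 1.64 ± 0.16 (edgeR adjusted p 1.5e-07), or by 1.43 ± 0.12 (2.11e-10) without parental replicate 1. SEMA3A (chromosome 7, 83955777 to 84492725), a secreted guidance cue, was read at 15.2, 13.1, 13.3 and 14.2 CPM against 3.08, 4.81, 2.14 and 3.15 CPM. All 4 parental libraries were alike here, and SEMA3A fell by 2.09 ± 0.24 (5.05e-06), or by 2.07 (3e-06). FGF9 (chromosome 13, 21671073 to 21704498), a fibroblast growth factor, was read at 7.62, 21.6, 13.3 and 14.5 CPM against 2.7, 5.41, 5.65 and 6.76 CPM. FGF9 fell by 1.51 ± 0.25 (edgeR adjusted p 0.00102), with -1.62 (6.77e-05) without the shallow library, which was the lowest of the parental values.

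PXDN and CRIP2 changed by about 1 log2 unit when parental replicate 1 was left out. PXDN (chromosome 2, 1631887 to 1744901), the peroxidase that cross-links collagen IV, was read at 73.7, 10.9, 11.9 and 8.50 CPM against 0.770, 3.00, 0.195 and 1.13 CPM. It fell by 4.11 ± 0.63 (edgeR adjusted p 0.000473) and stood at -3.10 ± 0.44 (2.81e-05) without that library. CRIP2 (chromosome 14, 105472945 to 105480170), a LIM-domain protein, was read at 224, 28.3, 40.2 and 27.7 CPM against 10.8, 18.3, 18.5 and 18.9 CPM. CRIP2 fell by 2.02 ± 0.43 (0.019) with all libraries and by 0.92 ± 0.20 (0.0158) without the first. CAVIN1, a coat protein of caveolae, was lost altogether, as its 2830, 589, 668 and 500 CPM against 458, 467, 410 and 443 CPM gave -1.35 (edgeR adjusted p 0.0422) and then -0.40 (0.101). CAVIN1 was picked for this after its values were seen.

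KISS1R, SPRY4 and VGLL3 also fell, and SYK and TLE1 rose. KISS1R, the receptor of kisspeptin, was read at 33.0, 15.8, 22.7 and 17.5 CPM against 6.16, 8.41, 10.7 and 9.01 CPM and fell by 1.25 ± 0.21 (edgeR adjusted p 0.00111), or by 1.09 (0.00205) without parental replicate 1. SPRY4, a feedback inhibitor of receptor tyrosine kinases, was read at 161, 52.9, 44.6 and 49.2 CPM against 27.4, 32.4, 34.7 and 30.2 CPM. SPRY4 fell by 1.17 ± 0.25 (0.0186), and by 0.65 ± 0.15 (0.0209) in the smaller set, and was the 1 of 15 tested EGFR ligands and feedback genes that passed (0.429% of all genes did). SYK, a non-receptor tyrosine kinase, rose from 0, 1.82, 1.11 and 0.750 CPM to 8.09, 7.81, 8.96 and 4.06 CPM (2.67 ± 0.44, edgeR adjusted p 0.00106; 2.55 and 0.00106 without that library), on 13 parental and 111 tagged reads. TLE1, a co-repressor of the Groucho family, rose from 0, 0.608, 0.831 and 0.250 CPM to 4.24, 2.40, 4.09 and 4.73 CPM (2.85 ± 0.55, 0.00784; 2.74 and 0.0125), on 6 and 61 reads. VGLL3, a cofactor of TEAD factors, was read at 6.35, 3.95, 1.66 and 3.50 CPM against 0, 0, 0 and 0.901 CPM (-3.56 ± 0.69, 0.00884; -3.41 and 0.0125). All 4 tagged reads of VGLL3 were in tagged replicate 4, against 38 parental reads.

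The remaining named genes included 2 whose identity is uncertain. MAST4, a microtubule-associated kinase, rose by 2.20 ± 0.37 (edgeR adjusted p 0.00111) from 0.831 to 1.5 CPM in parental to 4.24 to 7.51 CPM in tagged libraries. CRYBG1, a crystallin-domain protein, rose by 1.03 ± 0.20 (0.00884) and TMEM218, a small membrane protein, by 0.81 ± 0.16 (0.00884), both without overlap. KRTAP2-3, a keratin-associated protein, stood at 7.62, 10.3, 10.8 and 10.5 CPM against 24.3, 23.7, 26.9 and 20.7 CPM (1.23 ± 0.25, edgeR adjusted p 0.0116), and near-identical copies of this gene make its identity uncertain. IFITM2, an interferon-induced membrane protein, was read at 295, 217, 204 and 127 CPM against 114, 105, 107 and 96.9 CPM and fell by 0.98 ± 0.17 (0.00123), with the same doubt because of its close copies IFITM1 and IFITM3. It was the 1 of 22 tested antigen presentation and interferon genes that passed, beside 0.429% of all genes. ZNF84, a zinc-finger protein, fell by 1.37 ± 0.28 (edgeR adjusted p 0.0123). MAST4, CRYBG1, TMEM218, KRTAP2-3, IFITM2 and ZNF84 were all called without parental replicate 1 as well. For all of them but IFITM2, the rule that named them required this and lines without overlap.

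Genes of the unfolded protein response did not pass in either set. Of 13 tested sensors and regulators none was called, with a median of 0.05, or -0.11 without parental replicate 1. ATF6, the sensor that is cleaved in the Golgi, had means of 89.9 and 72.2 CPM (-0.29, edgeR adjusted p 0.187, and -0.19 and 0.654 without that library), DDIT3, the death-linked factor CHOP, of 837 and 839 CPM, and XBP1, the substrate of IRE1, of 220 and 231 CPM. Of 39 tested ATF4 and CHOP targets none passed, and their median was 0.01 with all libraries, when 21 of 39 lay above 0, beside 5582 of 11186 genes. Without that library the median was -0.11 and 8 of 39 lay above 0, beside 5655 of 11186. JDP2, a repressor of the AP-1 group, came closest with -1.14 ± 0.31 (edgeR adjusted p 0.0814), which became -0.64 (0.28). None of 30 ER chaperones, 22 genes of ER-associated degradation, 43 of ER-to-Golgi transport or 9 reported substrates of IRE1-dependent decay passed; their medians lay between -0.03 and 0.07, and between -0.09 and 0.000294 without parental replicate 1.

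RNA-processing and degron-partner genes showed no call either. None of 17 m6A writers, readers and erasers passed (median 0.09, or 0.05 without parental replicate 1). The eraser ALKBH5 came closest at 0.38 ± 0.13 (edgeR adjusted p 0.113), then 0.26 (0.427). Of 35 genes of mRNA decay none passed, with a median of 0.04 that turned to -0.05 without parental replicate 1, and BTG1, an adaptor of the deadenylase, was closest at -0.76 ± 0.20 (0.0631), then -0.33 (0.251). The 16 tested SCF and proteasome partners of the degron had no call, with a median of 0.25 that became 0.08 without that library. Ribosomal protein genes had no call among 32 of the small and 45 of the large subunit. RPL8, the large-subunit gene with the smallest p, had means of 5740 ± 7270 CPM and 1760 ± 35.9 CPM (SD, n = 4 each), the high value being parental replicate 1, and its difference of -1.70 (edgeR adjusted p 0.055) became -0.26 (0.641).

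Labelled reads, taken to come from RNA made in the last 2 h, differed at 5 of 8980 genes (0.0557%), 4 lower (0.0445%) and 1 higher (0.0111%). An unadjusted p under 0.05 was found for 778. Without parental replicate 1 the 5 were called again, in 7 of 9177 (0.0763%), 6 lower (0.0654%) and 1 higher (0.0109%). CDK6 had 420, 324, 348 and 338 labelled CPM in parental and 139, 182, 216 and 140 in tagged libraries and fell by 1.02 ± 0.17 (edgeR adjusted p 0.0009), a size close to that in all reads. FGF9 had 39.4, 76.8, 58.0 and 58.9 against 3.98, 8.40, 26.7 and 20.3 labelled CPM and fell by 1.87 ± 0.37 (0.00973). These FGF9 values rest on few labelled reads, 3, 28, 22 and 26 in parental and 1, 3, 14 and 10 in tagged libraries. VCAN had 39.4, 54.8, 76.4 and 70.3 against 7.97, 25.2, 24.8 and 18.2 labelled CPM and fell by 1.67 ± 0.35 (0.0253). The differences were -0.97 (0.000129) for CDK6, -1.92 (0.00252) for FGF9 and -1.74 (0.00984) for VCAN (edgeR adjusted p) without parental replicate 1. Over all genes in labelled reads, lines without overlap were found for 4.06%, or 7.04% without parental replicate 1. The lines did not overlap in any of these 3 either, but the rule that named them required this. Their labelled shares did not pass, with differences of 0.03 ± 0.17 for CDK6, -0.67 ± 0.53 for FGF9 and -0.17 ± 0.36 for VCAN.

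NGRN and ANKRD10 were the other 2 calls in labelled reads. NGRN (chromosome 15, 90265663 to 90272211), neugrin, a mitochondrial ribosome assembly factor, had 171, 551, 587 and 503 labelled CPM against 291, 288, 166 and 231. It fell by 1.03 ± 0.18 (edgeR adjusted p 0.00198), and by 1.20 ± 0.15 (6.89e-09) without parental replicate 1, which alone made the lines overlap. NGRN lies outside the rule for named genes because of that overlap and was chosen after its values were seen. ANKRD10, an ankyrin-repeat protein, had 249, 337, 414 and 379 against 566, 568, 561 and 616 labelled CPM and rose by 0.69 ± 0.15 (edgeR adjusted p 0.0266), or by 0.62 (0.0192) in the smaller set. In all reads ANKRD10 stood at 0.46 ± 0.12 (0.0701). When labelled reads were scaled by the library sizes of all reads, the split of calls became 5 lower and 0 higher, without ANKRD10.

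The labelled share differed at 4 of 8980 genes (0.0445%), 3 higher (0.0334%) and 1 lower (0.0111%). At an unadjusted p below 0.05 there were 561. It differed at 3 of 9177 (0.0327%) without parental replicate 1, with 2 higher (0.0218%) and 1 lower (0.0109%). HMGA2 had a higher share on fewer reads. It was 21.7%, 32%, 26.4% and 29.0% in parental and 36.0%, 35.9%, 34.7% and 38.8% in tagged libraries, on 212 to 1131 and 433 to 926 reads. The lines did not overlap, which the rule for naming a gene by its share required and which held for 3.27% of genes (6.75% without parental replicate 1). The log2 ratio of labelled to unlabelled HMGA2 reads rose by 0.59 ± 0.12 (edgeR adjusted p 0.00563), or by 0.55 (0.0341) without that library. Labelled HMGA2 reads, at 604, 836, 756 and 744 against 621, 633, 612 and 612 labelled CPM, differed by -0.27 ± 0.13 (0.546), while all HMGA2 reads fell by 0.69 as given above. The 95% Wilson interval was 16.7% to 27.7% in parental replicate 1, 29.1% to 35.0% in parental replicate 2 and 31.7% to 37.8% in tagged replicate 3. The intervals of parental replicate 2 and tagged replicate 3 overlap. A Wilson interval covers counting error only, since reads carried no molecular identifiers.

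SEPTIN10 (chromosome 2, 109542799 to 109613966), a cytoskeletal GTPase, had shares of 0%, 13.9%, 14.6% and 12.5% in parental and 36.0%, 25%, 19.5% and 38.2% in tagged libraries. The value of parental replicate 1 rests on 0 of 18 reads, which allows a share of up to 16.7%. The share rose by 1.52 ± 0.30 (edgeR adjusted p 0.00562), and by 1.45 (0.0171) without that library, while all SEPTIN10 reads, at 0.01 ± 0.21 (0.99), did not pass. NGRN had shares of 15.9%, 36.7%, 40.6% and 34.5% against 22.6%, 25.2%, 18.1% and 21.8%. The NGRN share fell by 0.91 ± 0.17 (0.00562), or by 1.02 (0.000223) without parental replicate 1, the only parental library below the tagged ones.

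EGR1, an immediate-early transcription factor whose mRNA turns over fast, had the highest shares of the 4. They were 56.9%, 67.1%, 66.8% and 66.4% against 69.5%, 70.2%, 70.4% and 70.7%, with means of 64.3% and 70.2%. The log2 ratio of labelled to unlabelled EGR1 reads differed by 0.41 ± 0.08 (edgeR adjusted p 0.00562). Without parental replicate 1 that difference was 0.31 (0.101) and no longer called, although the lines still did not overlap. EGR1 was chosen after its values were seen, as it fails the rule that a named gene is called without that library. Scaling labelled and other reads by 1 common library size, without centring on the typical gene, ended all 4 share calls (smallest adjusted p 0.0519), and limma on log2 ratios called 0 genes (smallest adjusted p 0.071).

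**Figure D4:**
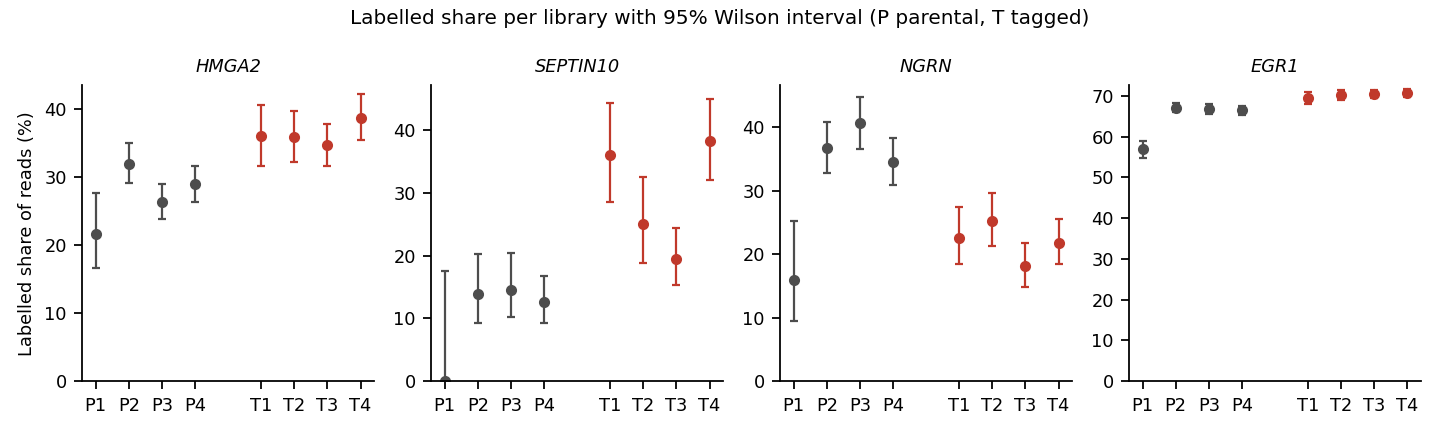
Labelled share (% of the gene's reads) of HMGA2, SEPTIN10, NGRN and EGR1 in the 4 parental (P1 to P4) and 4 tagged (T1 to T4) libraries, with 95% Wilson intervals (counting error only). P1 is the lowest parental library in all 4 panels, and at NGRN it lies below every tagged library, at 15.9%.

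The same line contrast in the other states, which shares no library with the one above, gave the called genes' differences for comparison. It called 27 genes in unstressed vehicle (0.241%), 36 in unstressed auxin (0.322%) and 46 in stressed vehicle (0.411%). Of the 48 genes, 17 were called in unstressed vehicle (35.4% of the 48 and 63.0% of the 27), 17 in unstressed auxin (35.4% and 47.2% of the 36) and 16 in stressed vehicle (33.3% and 34.8% of the 46). In all 3 other states 7 were called, and in none of them 22. The sign was the same for 46, 47 and 41 of the 48. The fit without parental replicate 1 called 146 (1.3%), 215 (1.91%) and 386 (3.43%) genes in the other states, whose libraries were the same, and 31, 39 and 27 of its 54 genes were then shared. Of these 54, 20 were called in all 3 other states and 9 in none of them. Their sign was the same for 52, 54 and 50. How often the sign was the same over all genes was not counted.

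SEMA3A, VCAN and MAL2 differed between the lines in every state. SEMA3A stood at -2.61 in unstressed vehicle, -2.59 in unstressed auxin and -3.00 in stressed vehicle, with edgeR adjusted p of 1.16e-07, 1.91e-07 and 4.23e-09. VCAN stood at -1.70, -1.40 and -1.38 (7.61e-08, 1.68e-06 and 2.55e-06), and MAL2 at 1.07, 0.93 and 1.03 (1.1e-05, 0.000119 and 2.39e-05). CDK6 stood at -0.67, -0.88 and -0.67 (0.0337, 0.00126 and 0.0274) and S100A4 at -0.73, -0.77 and -0.50 (0.000594, 0.000191 and 0.0359). These line differences were therefore also present in wells without auxin. In labelled reads NGRN was called in all 3 other states (-1.58, -0.92 and -1.21), and CDK6 and VCAN in unstressed auxin and stressed vehicle. FGF9 and ANKRD10 were called there in none. The NGRN share stood at -1.07, -0.70 and -0.68 (edgeR adjusted p 0.000335, 0.1945 and 0.1013). The SEPTIN10 share stood at 1.39, 1.66 and 1.39 (0.1129, 0.000576 and 0.02985), and the EGR1 share was called in none of these states.

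For HMGA2, EPCAM and IGF2 the test of the difference from stressed vehicle is given beside the values in the other states. HMGA2 stood at -0.40 in unstressed vehicle (edgeR adjusted p 0.0337), -0.73 in unstressed auxin (3.17e-06) and -0.30 in stressed vehicle (0.145), beside -0.69 here. The test of the difference between stressed auxin and stressed vehicle gave -0.39 ± 0.12 (unadjusted p 0.0027, edgeR adjusted p 0.166), or -0.43 (0.116) without parental replicate 1. In that smaller fit HMGA2 was also called in stressed vehicle cells, at -0.29 (edgeR adjusted p 0.0218). Its labelled share stood at 0.16, 0.67 and 0.18 in those states, and the difference from stressed vehicle was 0.41 ± 0.16 (0.663), or 0.37 (0.82) in the smaller fit. EPCAM stood at 0.25, 0.56 and 0.22, and its difference from stressed vehicle was 0.49 ± 0.20 (0.183), or 0.32 (0.302) without parental replicate 1. IGF2 stood at 0.00, -0.70 and -0.11, and its difference from stressed vehicle was -1.07 ± 0.31 (0.166). It was -0.56 (edgeR adjusted p 0.127) without parental replicate 1, the highest library for IGF2. None of these differences passed in either fit.

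**Figure D5:**
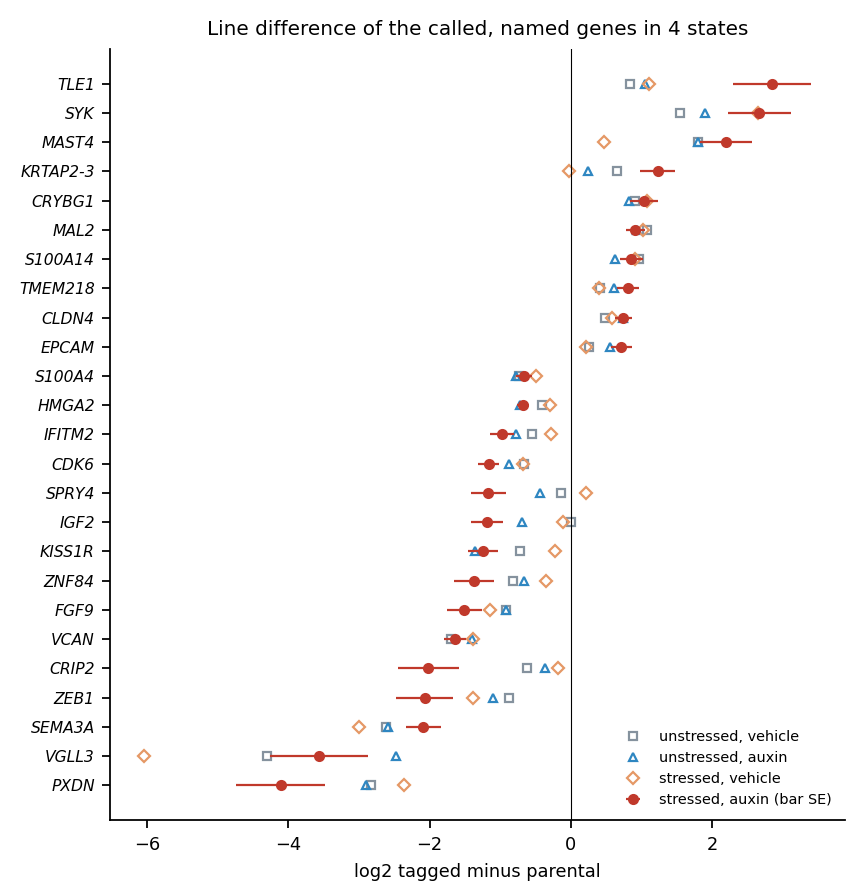
Line difference (log2, tagged minus parental, all reads) of 25 named genes called in stressed auxin cells (filled circles, bars are SE) and of the same genes in the 3 other states (open symbols). SEMA3A, VCAN and MAL2 lie on their own side of 0 in all 4 states, and KRTAP2-3, SPRY4 and CRIP2 lie near 0 in stressed vehicle cells.

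Across all genes, the line difference of stressed auxin cells was not shown to differ from that of stressed vehicle cells. The test of that difference called 0 of 11186 genes in all reads (edgeR, 0%; 2430 at an unadjusted p under 0.05, smallest adjusted p 0.151). DESeq2 called 146 and limma voom with quality weights 219. Leaving out parental replicate 1 kept it at 0 (1632 at an unadjusted p under 0.05), whereas leaving out parental replicate 4 gave 1045. The 3 genes with the smallest p were MED24, SCARA3 and ARFIP2. MED24, a subunit of the Mediator complex, was read at 438, 354, 331 and 197 CPM in parental and 209, 244, 211 and 229 CPM in tagged libraries. Parental replicate 4 lay with the tagged libraries, and MED24 differed by -1.35 ± 0.27 (edgeR adjusted p 0.151) from its line difference in stressed vehicle. SCARA3, a scavenger receptor, stood at -1.17 ± 0.24 and ARFIP2, a binding partner of small GTPases, at -0.91 ± 0.19 (both 0.151). MED24 was at -1.21 (edgeR adjusted p 0.0957) without parental replicate 1, SCARA3 at -1.001 and ARFIP2 at -0.79 (both 0.0825).

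In labelled reads and shares this test called 0 of 8980 genes as well (edgeR, 1033 and 539 at an unadjusted p under 0.05; DESeq2 called 21 in labelled reads and limma 1 in shares). TRIM11, a ubiquitin ligase, had 696, 686, 532 and 524 labelled CPM against 370, 437, 506 and 375 and a difference from stressed vehicle of -0.96 ± 0.21 (edgeR adjusted p 0.136). Without parental replicate 1, 3 of 9177 genes (0.0327%) were called in labelled reads, TRIM11 at -0.92 and GANAB at -1.01 among them. MED24 stood at -1.50 ± 0.34 in labelled reads and ASPH, an ER hydroxylase, at 1.13 ± 0.27 (both 0.136). In shares RPL36A, a ribosomal protein with a read-through neighbour, stood at 1.47 ± 0.33 (0.168), KLF11, a zinc-finger repressor, at -3.20 ± 0.78 (0.256) and GANAB, the glucosidase II subunit that trims new glycoproteins, at -0.85 ± 0.21 (0.256). The stressed auxin libraries held only 9 to 34 KLF11 reads each.

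Against the line difference in unstressed auxin cells, all reads also gave 0 calls of 11186 (edgeR, 0%; 508 at an unadjusted p under 0.05, smallest adjusted p 0.892), and DESeq2, limma voom and each library left out in turn gave 0 too. PCLO, a presynaptic scaffold protein, had the smallest p with 2.14 ± 0.60 (0.892), on 13 parental and 41 tagged reads in stressed auxin libraries. PPP2R3C, a phosphatase subunit, stood at -0.80 ± 0.23 and TIMM10B, a mitochondrial import protein, at -0.71 ± 0.21 (edgeR adjusted p 0.892 each).

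The counted regions of the called genes differed in length. The median region was 2434 bases at the 36 lower genes (140 to 10219 bases, the shortest at S100A4 and the longest at CDK6) and 812 bases at the 12 higher genes, against 1112 bases over all genes tested. Without parental replicate 1 the medians were 2317 and 862 bases. Their T content was alike, with medians of 31.0% at lower, 31.3% at higher and 29.8% at all genes. Among the libraries compared, covered T positions per read were low in parental replicate 1 alone. The part of region length in the result was not tested. A fit with covered T per read as a covariate called 101 genes, 45 higher and 56 lower, with 47 of the 48 among them.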

How the data were processed

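Polyadenylated RNA was read from its 3′ end (QuantSeq) after alkylation, and the deposited tables of the authors hold read counts and T-to-C read counts per transcript region, per the file headers; the values are counts with no normalization. The submitters' processing notes name the build hg38, and the settings of the read mapping are not given in the sources used here. Each file lists 95582 transcripts, of which 40006 of 40767 NM identifiers, 6326 of 33066 XM identifiers and 0 of 21749 others were matched to a gene symbol; reads on unnamed transcripts were 37.2% to 43.5% of these libraries and were left out. Each of 18829 genes was represented by its region with the most summed reads, and 72 genes with counts identical to another gene's were dropped.

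Groups came from the labels. The main test was edgeR 4.0.16 (limma 3.58.1, R 4.3.3): TMM scaling, its filter on low counts and a robust quasi-likelihood fit of all 32 libraries with 8 groups, which share 1 estimate of spread. The labelled share was fitted as labelled against other reads of a library. Alternatives were DESeq2 1.42.0, limma, other filters, scalings and covariates, a replicate block and each library left out. Named in the text are the 10 higher and 10 lower genes of largest change (6 and 6 for labelled reads and shares) that passed with and without parental replicate 1 without overlap, up to 3 passing members of each list, and the 3 smallest p of each test of a difference between states. The members and lists were chosen with earlier results of these data known. The procedure was tested on simulated data with the same spread in all libraries and none of outlying composition. That test therefore could not show how a library such as parental replicate 1 affects the calls. Deviations from the group mean correlated between libraries of equal number at r 0.089, -0.152, 0.077 and -0.048 over 8151 genes. For unequal numbers r ran from -0.279 to 0.375. The parental mean includes the outlying replicate 1, so these values cannot show whether libraries were paired. Wilson intervals (95%) and the limit from a count of 0 (3 counts) cover counting error only. Gene coordinates are from a RefSeq table of GRCh38. Results for some genes that met these rules are not reported here.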

Additional observations from a re-analysis of the deposited data

Results flagged for a closer look

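Of 92 sets of 4 libraries examined for 1 library far from the other 3 (Dixon's critical value 0.829), 16 had one, and chance gives about 1 in 20. Parental replicate 1 was that library in 13. It had reads on 11375 genes, 9.97% of its reads in its 10 most abundant genes, 43.5% of its reads on unnamed transcripts and 15.1 covered T positions per read. It also stood far from the other parental libraries at KRTAP2-3 (7.62 CPM), PXDN (73.7 CPM), CRIP2 (224 CPM), IGF2 (354 CPM), SPRY4 (161 CPM), CDK6 (485 CPM), IGF2BP2 (563 CPM) and IGF2BP3 (235 CPM), and at the labelled share of SEPTIN10 (0%, on 18 reads). The other 3 were tagged libraries: VGLL3 in replicate 4 (0.901 CPM), CRIP2 in replicate 1 (10.8 CPM) and labelled ANKRD10 in replicate 4 (616 labelled CPM).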

How the results depend on the processing

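Counts of calls moved more than the direction of named genes. Most named genes were chosen because they passed without parental replicate 1 and their lines did not overlap. Their being called again was thus favoured in advance, and without that library it was required. Of all 48 calls in all reads, 39 were kept without it. Of 26 named genes called in all reads, 26 were called again under RLE scaling, no filter, the longest region, limma voom, the covered-T covariate and without each parental library; DESeq2 called 21 of 21 that it gave an adjusted p, and the 8 libraries less parental replicate 1 called 24 of 25 (not TMEM218); 20 to 24 were called without each tagged library and none of 23 in the fit of the 8 libraries alone. Against 48 calls in all reads, DESeq2 gave 666 (86 higher, 580 lower), the covered-T covariate 101, limma voom 167, the compared libraries alone 0, and the replicate block with the covered-T covariate 93; leaving out 1 library gave 25 (tagged replicate 3) to 1237 (parental replicate 4), with 650 and 627 without parental replicates 2 and 3. Against 5 in labelled reads, the values were DESeq2 20, covered-T covariate 10, no filter 56, compared libraries alone 0 (277 at an unadjusted p under 0.05), the same without parental replicate 1 14 (chosen after seeing the data), block with covariate 10, and 2 to 20 with 1 library left out. Against 4 in shares they were limma 0 (956 at an unadjusted p under 0.05), no centring 0 (539), no filter 8, compared libraries alone 2, the same without parental replicate 1 8, and 1 to 6. For the difference from stressed vehicle, 0 calls became 146 (DESeq2), 219 (limma voom) and 0 to 1045 in all reads. In labelled reads they became 21 (DESeq2), 5 (covered-T covariate), 3 (limma voom), 101 (no filter), 3 (block with covariate) and 0 to 51, and in shares 1 (limma), 3 (no filter) and 0 to 1. The replicate block alone gave 43, 7 and 4 calls for the line difference; the labels give no pairing. The library labelled share ranged from -0.511 to 0.523 points with 1 library left out (-0.0816 without tagged replicate 4). The conversion difference was 0.0176 over all transcripts and -0.016 to 0.0136 with 1 library left out (0.008 without parental replicate 1, 0.00243 without tagged replicate 3, 0.00125 without parental replicate 4). The IGF2BP3 labelled share difference (-0.04) ranged from -0.1407 without tagged replicate 4 to 0.07425 without tagged replicate 3, and was 0.06138 without parental replicate 2. The cause of these changes was not tested. Genes with few reads, such as TLE1, SYK, VGLL3 and ZEB1, are limited by depth.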
